A study of Homo sapiens with 12 samples.

Results

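The nuclear genome encodes most subunits of the mitochondrial respiratory chain, and 88 of the 34599 gene symbols in the table were taken as its nuclear encoded genes. Members were chosen by name alone. They are the symbols that start with NDUFA, NDUFB, NDUFC, NDUFS or NDUFV, with UQCR, with COX4I, COX5, COX6, COX7 or COX8, or with ATP5, together with SDHA, SDHB, SDHC, SDHD and CYC1, and the NDUFAF assembly factors were left out. They had 115 probes on the array. Of these, 102 probes for 80 symbols had a detection p-value below 0.05 on 2 or more of the 12 arrays and were tested, out of 24207 tested probes for 19089 symbols. The 102 probes cover complex I with 40 probes for 36 symbols, complex II with 6 for 4, complex III with 11 for 9, complex IV with 13 for 13 and complex V with 32 for 18. The counts of complex V follow the name ATP5 and include ATP5S and ATP5SL, which RefSeq no longer names for the ATP synthase. The rule used names and detection, and no difference between groups, but it was chosen with earlier results of these data known. NDUFA4L2 passed on 1 array of each FAK hairpin in a single cell line, so its levels are given and its test is not taken as a result. It stays in the counts of tested and called probes below.

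Complexes I and II take electrons from NADH and succinate and pass them through ubiquinone to complex III, from which cytochrome c carries them to complex IV, where oxygen is reduced. Complexes I, III and IV pump protons across the inner mitochondrial membrane, and complex V, the ATP synthase, uses the proton gradient to make ATP. Complex II is also the succinate dehydrogenase of the tricarboxylic acid cycle, and its subunits are all encoded in the nucleus, while complexes I, III, IV and V also contain subunits encoded by mitochondrial DNA. The subunits encoded by mitochondrial DNA were not analysed here.

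RNA of 2 cell lines established from human pancreatic ductal adenocarcinoma (PDAC), MIA PaCa-2 and Capan-1, was hybridised to Illumina HumanHT-12 v4 bead arrays to ask which genes respond to loss of focal adhesion kinase (FAK, encoded by PTK2), a kinase that carries integrin signals. Cells carried a doxycycline-inducible scrambled hairpin (shCtrl) or 1 of 2 hairpins against FAK, sh1209 and sh1319, the latter spelled shFAK1319 in the Capan-1 labels. All 6 groups, shCtrl included, had doxycycline at 50 ng/ml for a period of 96 hours and were kept in puromycin (MIA PaCa-2 at 3.5 ug/ml, Capan-1 at 1.5 ug/ml). Each group had 2 arrays, from 500 ng of RNA each and on 1 chip, and since no source says that they came from separate cultures, the p-values measure only the spread between these samples, which may be technical.

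Values are normalized log2 intensities, on which a difference of 1 is a doubling. Levels are compared between groups for 1 probe at a time. Only the brightness of probes is set side by side, as a description of signal and not of the amount of RNA. A probe is called when its limma p-value, adjusted by the Benjamini-Hochberg method over all 24207 probes, is under 0.05. An intensity in a culture cannot tell fewer cells that express a gene from less RNA per cell. The arrays had median intensities of 87.7 to 97.0, with 16259 to 19814 probes detected. The brighter PTK2 probe changed in MIA PaCa-2 by -2.24 (sh1209) and -2.48 (sh1319), while its Capan-1 changes were -0.61 and -1.78, and all 4 falls were called, while the dimmer probe was called in none of the 4 (adjusted p in limma 0.0799 to 0.249). In Capan-1 the shCtrl arrays read 10.35 and 10.17, the sh1209 arrays 9.66 and 9.63 and the sh1319 arrays 8.48 and 8.49, so the smallest of the 4 changes was that with sh1209 in Capan-1. Of 9 ductal epithelial marker symbols, all 9 were detected on all 6 Capan-1 arrays, whereas 4 were detected on all 6 MIA PaCa-2 arrays and CDH1 and TACSTD1 on none. TACSTD1 and EPCAM are names of the same gene, and the probe under the name EPCAM was detected on 2 MIA PaCa-2 arrays. Of 13 marker genes of other cell types, 1 (CD68) was detected on all 6 arrays of MIA PaCa-2 and 2 (CD68 and ACTA2) on all 6 of Capan-1, and 6 and 5 were detected on none.

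The respiratory chain genes were bright. The mean log2 intensity of a member probe over the 12 arrays ranged from 4.48 to 13.61 with a median of 10.89, against 5.35 for all tested probes, and 95 of the 102 lay above that median. By this measure 73.5% of the member probes were among the brightest 10% of the tested probes. The genes that were not detected were mostly tissue isoforms. NDUFS6, COX4I2, COX6BP1, COX7A1, COX7B2 and COX8C were detected on 0 arrays, and COX6A2 and COX6B2 on 1 each. COX4I2, COX6A2, COX6B2, COX7A1, COX7B2 and COX8C encode the isoforms of complex IV subunits that are used in lung, muscle or testis, whereas the widely used COX4I1, COX6A1, COX6B1, COX7A2 and COX8A were detected on all 12 arrays.

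Most respiratory chain probes were not called after FAK knockdown, and SDHD alone changed by more than 1 on the log2 scale with a call. With sh1209 in MIA PaCa-2, 11 of the 102 member probes were called, which is 10.8%, where 18% of all tested probes were called. Of these, 5 (4.9%) were higher and 6 (5.88%) were lower, against 9.05% and 8.99% of all probes. With sh1319 in MIA PaCa-2, 20 members (19.6%) were called, against 24.3% of all probes, 13 (12.7%) higher and 7 (6.86%) lower, against 12.2% and 12.1%. NDUFA4L2 is 1 of these 13 and passed the detection filter only through arrays with a FAK hairpin. With sh1209 in Capan-1, 19 members (18.6%) were called, against 16.8%, and here the calls were unequal, with 3 (2.94%) higher and 16 (15.7%) lower, against 8.14% and 8.69%. With sh1319 in Capan-1, 7 members (6.86%) were called, against 13.7%, 2 (1.96%) higher and 5 (4.9%) lower, against 6.95% and 6.77%.

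These splits moved with the scaling of the arrays, and of the 82 named calls described here, 45 were lost under median scaling. Counts under other scalings stand here and below without the share of all probes called under the same scaling. Of the named calls in the 4 pairs, those that held under median scaling were NDUFS7, NDUFB3 and NDUFV3 with sh1209 in MIA PaCa-2, SDHD, NDUFB11, UQCRQ, the brighter ATP5G1 probe, ATP5L, ATP5SL, NDUFS7 and NDUFV3 with sh1319 there, UQCRC1 with sh1209 in Capan-1, and ATP5SL and ATP5S with sh1319 in Capan-1, and all other named calls in the pairs were lost under it. Under median scaling in place of quantile normalization, 2 members were higher and 1 lower with sh1209 in MIA PaCa-2, 1 higher and 0 lower with sh1209 in Capan-1, and 2 higher and 0 lower with sh1319 in Capan-1. With cyclic loess the split for sh1209 in Capan-1 was 4 higher and 7 lower, and median scaling over the tested probes gave 3 higher and 9 lower for sh1209 in MIA PaCa-2. Over all member probes the median change was -0.03, 0.03, -0.07 and -0.05 in the 4 pairs in the order above, with a median standard error of 0.12, and the median over all tested probes lay within 0.02 of 0 in each. In all, 45 member probes for 38 genes (44.1%) were called in at least 1 pair, beside 43.7% of all probes. A called change of at least 1 was found for 1 member, SDHD (0.98%), beside 10.3% of all probes.

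**Figure D1:**
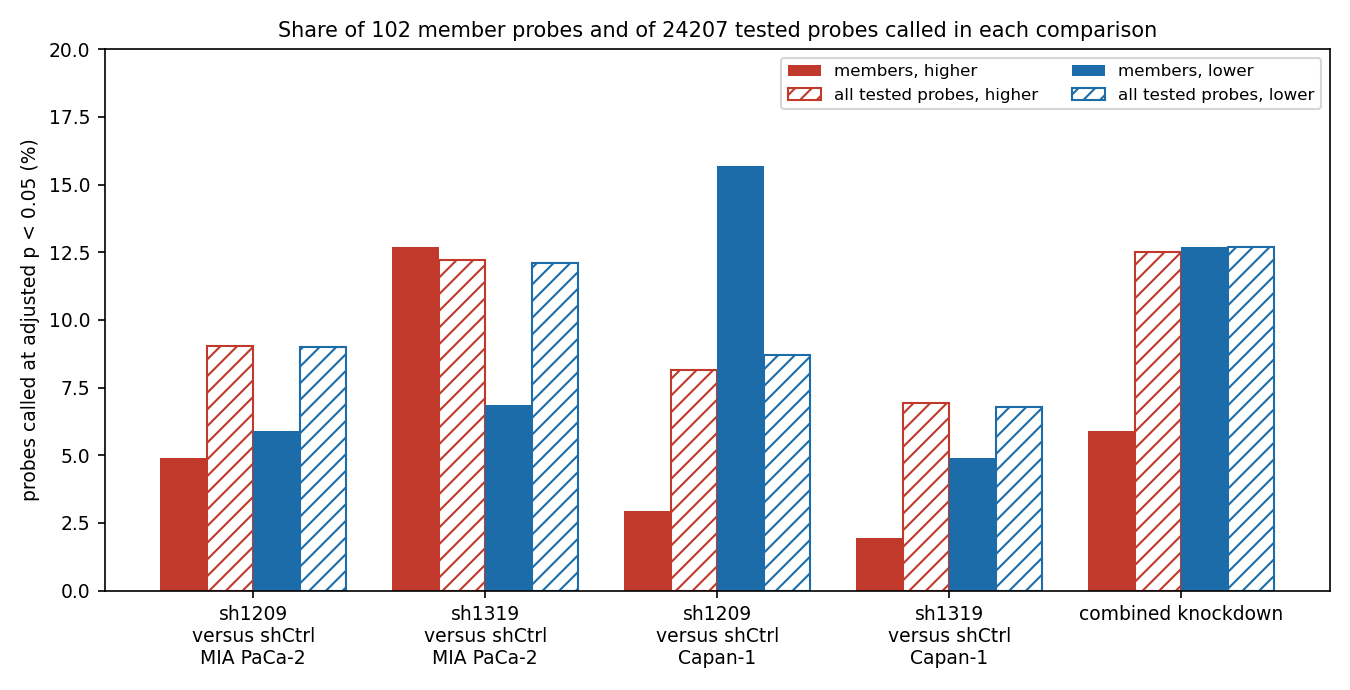
Percent of probes called higher or lower in the 4 knockdown pairs and in the combined knockdown, for the 102 respiratory chain probes (filled bars) and all 24207 tested probes (hatched bars). The members' shares lie below those of all probes on both sides for MIA PaCa-2 with sh1209 and Capan-1 with sh1319, and the share of members called lower with sh1209 in Capan-1 (15.7%) lies above that of all probes (8.69%).

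**Figure D2:**
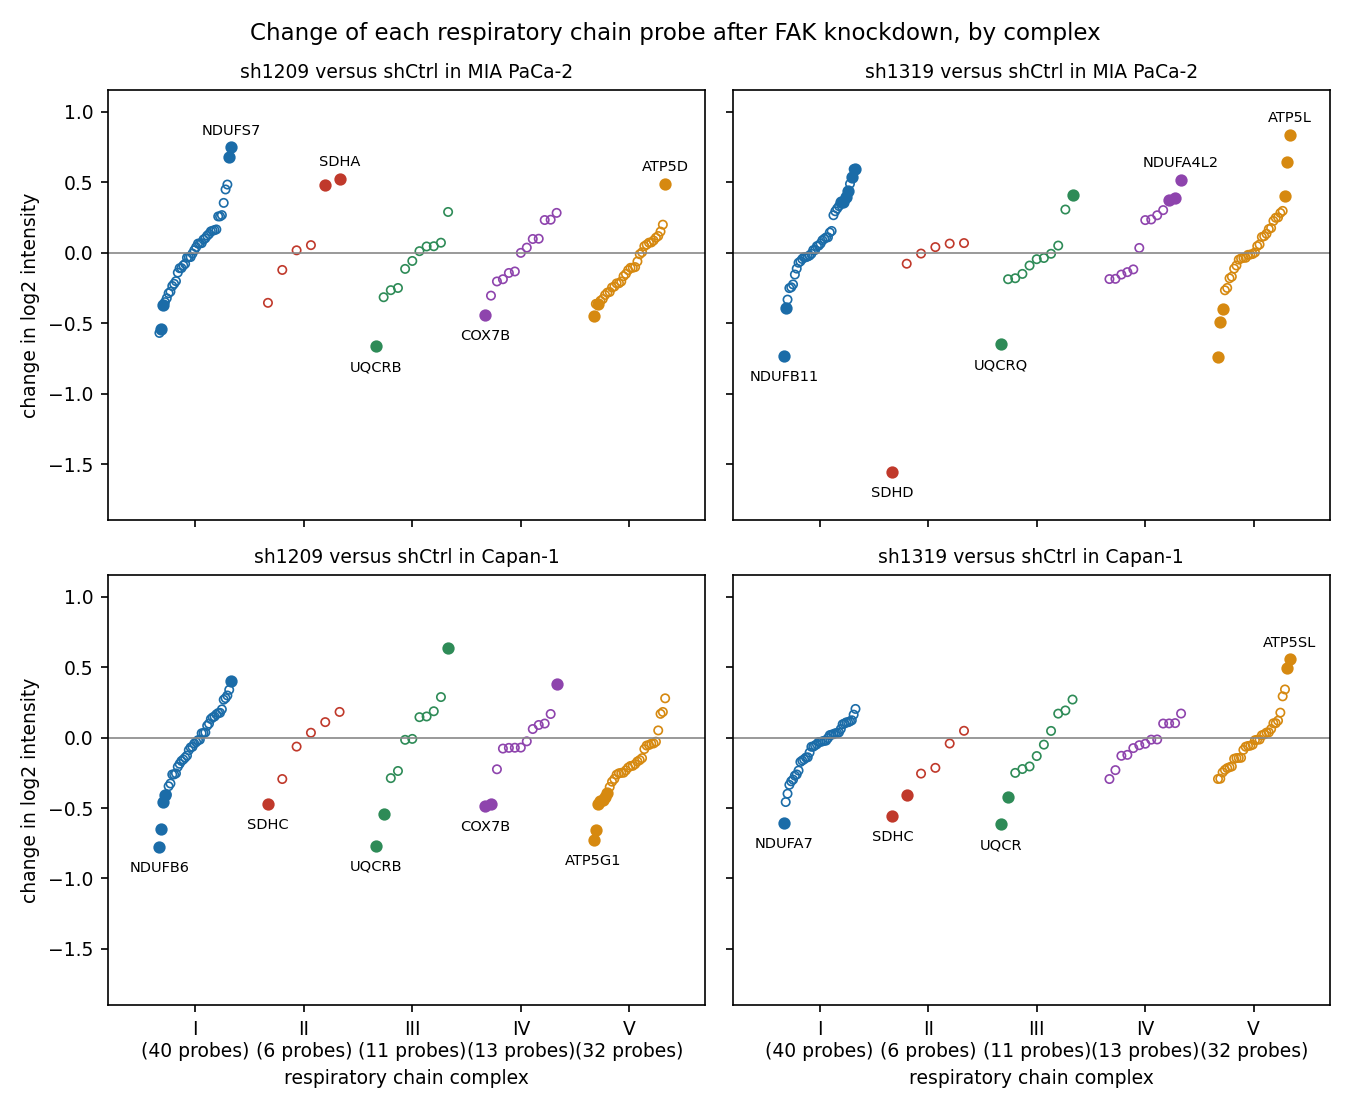
Log2 change of each member probe against shCtrl, in 1 panel for each knockdown pair, with probes grouped by complex. Filled points are called, and the called probe with the largest change in each complex is labelled. SDHD at -1.56 with sh1319 in MIA PaCa-2 is the point farthest from 0, and the points of complex V with sh1209 in Capan-1 have a median of -0.21.

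The promoters of 5 members are shown because these genes had the 4 largest called falls with sh1319 in MIA PaCa-2 (SDHD, ATP5G1, NDUFB11 and UQCRQ) and the largest called rise with sh1209 there (NDUFS7). The sequences are from RefSeq (GRCh38.p14), and each is the 250 bases before the annotated start, on the gene's strand and 5′ to 3′. Capitals mark the cores of sites known from nuclear genes of the respiratory chain and from many other promoters, searched on both strands: GCATGCG for the NRF1 core, CCGGAAG for the ETS core that GABPA (also called NRF2) and its relatives bind, GGGCGG for the GC box, and CCAAT for the CCAAT box.
SDHD, chr11:112086623-112086872, plus strand: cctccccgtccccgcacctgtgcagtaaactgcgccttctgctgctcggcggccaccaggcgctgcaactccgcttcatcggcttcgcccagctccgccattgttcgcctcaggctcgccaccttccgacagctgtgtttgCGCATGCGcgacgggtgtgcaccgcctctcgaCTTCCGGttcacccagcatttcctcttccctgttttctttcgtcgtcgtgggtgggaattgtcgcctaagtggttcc
NDUFB11, chrX:47144703-47144952, minus strand: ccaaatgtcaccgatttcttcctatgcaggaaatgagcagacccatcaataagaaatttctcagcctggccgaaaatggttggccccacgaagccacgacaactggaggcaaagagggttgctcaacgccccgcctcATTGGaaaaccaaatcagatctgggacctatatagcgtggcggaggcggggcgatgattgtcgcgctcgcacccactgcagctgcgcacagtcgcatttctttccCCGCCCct
UQCRQ, chr5:132866392-132866641, plus strand: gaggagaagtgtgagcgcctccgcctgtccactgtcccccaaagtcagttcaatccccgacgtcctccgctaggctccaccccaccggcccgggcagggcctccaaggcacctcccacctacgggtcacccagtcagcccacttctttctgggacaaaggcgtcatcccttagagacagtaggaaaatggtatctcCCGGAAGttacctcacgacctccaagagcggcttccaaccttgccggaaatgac
ATP5G1, chr17:48892537-48892786, plus strand: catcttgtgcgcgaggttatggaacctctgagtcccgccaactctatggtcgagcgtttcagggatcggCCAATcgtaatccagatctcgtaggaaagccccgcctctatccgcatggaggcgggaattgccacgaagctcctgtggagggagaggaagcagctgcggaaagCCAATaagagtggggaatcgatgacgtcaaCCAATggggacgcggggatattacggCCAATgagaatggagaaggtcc
NDUFS7, chr19:1383657-1383906, plus strand: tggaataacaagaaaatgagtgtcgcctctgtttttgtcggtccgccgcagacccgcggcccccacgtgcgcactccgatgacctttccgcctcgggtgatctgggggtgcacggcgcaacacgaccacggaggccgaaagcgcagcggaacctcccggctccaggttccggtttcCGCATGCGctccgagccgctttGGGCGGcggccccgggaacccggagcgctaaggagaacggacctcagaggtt

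In SDHD, the NRF1 core stands on both strands, at positions -109 and -108 from the start, where the matches overlap, and an ETS core begins at -77. NDUFS7 has the same double NRF1 match at -74 and -73 with a GC box at -52. UQCRQ has an ETS core at -54, NDUFB11 a CCAAT box at -113 and a GC box at -8, and ATP5G1 has 4 CCAAT boxes, at -181, -78, -48 and -22. Among the 80 tested symbols, 63 had a promoter in the table. Over windows of 300 bases, from 250 before to 50 after the start, the NRF1 core was in 12 of the 63 (19.0%), beside 3.91% of all 35116 promoters, the ETS core in 19 (30.2%), beside 10.3%, and AAGATGGC, the YY1 core, in 11 (17.5%), beside 2.89%. The GC box was in 37 (58.7%), beside 45.0%, and the CCAAT box in 20 (31.7%), beside 34.6%. A core of NRF1, ETS or YY1 type was in 32 of the 63, NRF1 and ETS cores together were in 6, and 7 held none of the 5 motifs. These are matches of letters, given as a description of the promoters.

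Complex II, succinate dehydrogenase, held the gene with the largest change. SDHD, which encodes a subunit that anchors the enzyme in the membrane, read 10.23 and 10.07 on the MIA PaCa-2 shCtrl arrays, 9.74 and 9.84 with sh1209 and 8.51 and 8.68 with sh1319. Its Capan-1 arrays read 9.78 and 9.99 with shCtrl, 9.84 and 9.80 with sh1209 and 9.47 and 9.79 with sh1319. Both MIA PaCa-2 arrays with sh1319 lay below the other 10 arrays. SDHD fell by 1.56 ± 0.14 (SE, n = 2 against 2) with sh1319 in MIA PaCa-2 (adjusted p in limma 9.9e-06), and was not called in the other 3 pairs, with changes of -0.36, -0.06 and -0.26. The call held in all 12 fits that each left out 1 array, with changes of -1.64 to -1.47.

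The catalytic subunits and the other anchor of complex II moved less, and none of them was called with sh1319 in MIA PaCa-2, where SDHD fell. SDHA, the flavoprotein that oxidizes succinate, read 9.45 and 9.52 with shCtrl, 9.92 and 10.10 with sh1209 and 9.52 and 9.58 with sh1319 in MIA PaCa-2 at probe 3180470. It was higher with sh1209 by 0.52 (adjusted p in limma 0.0096), and its dimmer probe by 0.48 (adjusted p 0.043). The first call was lost without shCtrl replicate 1 (0.49) or sh1209 replicate 2 (0.43), and under median scaling. The second held in 3 of 12 such fits. It was lowest, 0.29, without sh1209 replicate 2, and was also lost without either shCtrl or sh1319 array of either cell line. SDHB, the iron-sulfur subunit, was not called in any of the 4 pairs (changes 0.02, -0.08, 0.03 and -0.22). SDHC, the other membrane anchor, was lower in Capan-1 at probe 6200241, which read 10.78 and 10.51 with shCtrl, 10.25 and 10.10 with sh1209 and 10.03 and 10.15 with sh1319. The shCtrl arrays lay above the 4 knockdown arrays, with falls of 0.47 and 0.56, and its MIA PaCa-2 changes were 0.05 and -0.01. The fall with sh1319 was lost without shCtrl replicate 1 (-0.42), sh1319 replicate 1 (-0.50) or replicate 2 (-0.62). The second SDHC probe fell by 0.41 with sh1319 in Capan-1 and held in 2 of 12 such fits, those without a MIA PaCa-2 sh1319 array, with values of -0.43 to -0.39 over the 12. Both SDHC calls with sh1319 were lost under median scaling, and that of the second probe (-0.18 there) also under cyclic loess, median scaling over tested probes and the replicate block (adjusted p in limma 0.053).

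Complex I, the NADH dehydrogenase, had, out of 40 probes in MIA PaCa-2, 2 higher and 2 lower with sh1209, beside 9.05% and 8.99% of all probes, and 6 higher and 2 lower with sh1319, beside 12.2% and 12.1%. NDUFS7, a core subunit that holds an iron-sulfur cluster next to the ubiquinone site, read 9.15 and 9.18 with shCtrl, 9.88 and 9.95 with sh1209 and 9.74 and 9.66 with sh1319 in MIA PaCa-2. Both knockdown groups lay above shCtrl, with rises of 0.75 ± 0.12 (SE, adjusted p in limma 0.0012) and 0.53 (adjusted p 0.007). The sh1319 call was lost without sh1319 replicate 1 (0.50). In Capan-1 the 6 arrays read between 9.34 and 9.55 and overlapped, with changes of -0.02 and -0.02. NDUFB11, an accessory subunit of the membrane arm encoded on the X chromosome, read 11.98 and 11.94 with shCtrl, 11.90 and 11.83 with sh1209 and 11.20 and 11.25 with sh1319. Only the sh1319 arrays lay apart, and NDUFB11 fell by 0.73 ± 0.12 (SE, adjusted p in limma 0.00066). In Capan-1 its changes were 0.34 with sh1209 and -0.03 with sh1319.

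Other accessory subunits of complex I differed by hairpin or cell line. NDUFB6 fell with sh1209 in Capan-1 at both of its probes. The brighter one read 10.69 and 10.67 with shCtrl, 10.13 and 9.93 with sh1209 and 10.46 and 10.31 with sh1319, a fall of 0.65 (adjusted p in limma 0.0029), and the other fell by 0.77 (adjusted p 0.0023). Its sh1209 arrays were the lowest in Capan-1 at both probes, and both calls were lost under median scaling. NDUFB3 fell by 0.54 at probe 1770102 with sh1209 in MIA PaCa-2, where it read 12.05 and 11.91 with shCtrl and 11.48 and 11.40 with sh1209, and its other probe changed by -0.35. NDUFB9 fell by 0.37 with sh1209 in MIA PaCa-2, a call that held in 3 of 12 leave-one-out fits, those without sh1209 replicate 2 in MIA PaCa-2 or either Capan-1 sh1319 array (-0.46 to -0.28 over the 12, lowest in size without sh1209 replicate 1). It was lost with the replicate block (adjusted p in limma 0.051). It was also called with sh1209 in Capan-1 (-0.41). NDUFA8 rose by 0.40 with sh1209 in Capan-1, and the call was lost without any 1 of the 4 arrays of that pair (0.38 to 0.43). NDUFA7 fell by 0.61 with sh1319 in Capan-1 (adjusted p in limma 0.0091), from 9.32 and 9.26 to 8.74 and 8.64, and the call was lost without shCtrl replicate 1 (-0.58) or sh1319 replicate 2 (-0.56), and under median scaling (-0.40). NDUFV3, a subunit of the NADH-binding module, has a pair of dim probes that did not act alike. Probe 4050192 rose by 0.68 with sh1209 in MIA PaCa-2, a call lost without shCtrl replicate 2 (0.59), sh1209 replicate 1 (0.75) or sh1209 replicate 2 (0.60), and probe 3610332 rose by 0.60 with sh1319. Without background correction these changes were 0.31 and 0.20.

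In complex III, the cytochrome bc1 complex, UQCRQ, a small subunit, read 12.76 and 12.82 with shCtrl, 12.77 and 12.68 with sh1209 and 12.16 and 12.11 with sh1319 in MIA PaCa-2. Its sh1319 arrays lay below the other 4, and it fell by 0.65 ± 0.11 (SE, adjusted p in limma 0.00078). Its changes in the other pairs were -0.06, -0.01 and -0.21. UQCRC1, a core protein of the matrix side, read 9.09 and 8.86 with shCtrl, 9.56 and 9.66 with sh1209 and 9.20 and 9.29 with sh1319 in Capan-1. It rose by 0.63 with sh1209 (adjusted p in limma 0.0044) and had the highest arrays there, while in MIA PaCa-2 the 6 arrays read between 9.24 and 9.41. UQCR (now UQCR11), a small subunit, fell by 0.54 and 0.62 in Capan-1, and the second call was lost without shCtrl replicate 1 (-0.63), shCtrl replicate 2 (-0.61) or sh1319 replicate 1 (-0.39), and under median scaling (-0.35), and was -0.30 without background correction. UQCRB, which lies near the ubiquinone site, fell at dim probe 520681 with sh1209 in MIA PaCa-2 (-0.66), with sh1209 in Capan-1 (-0.77) and with sh1319 in Capan-1 (-0.42). All 3 calls were lost under median scaling, the last also under cyclic loess, under median scaling over tested probes and without any 1 of the 4 arrays of that pair (-0.52 to -0.32). Without background correction the 3 changes were -0.23, -0.38 and -0.22. The brighter UQCRB probe was not called in any pair, with changes of -0.25, -0.04, -0.29 and -0.22. CYC1, cytochrome c1, was not called in any pair, with changes of 0.01, 0.05, 0.14 and -0.13.

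In complex IV, cytochrome c oxidase, 3 of 13 probes were higher and 0 lower with sh1319 in MIA PaCa-2, beside 12.2% and 12.1% of all probes, with a median over the 13 of 0.23. One of the 3 was NDUFA4L2, a probe near background. None of the 3 was called under median scaling, where the median was 0.26. The complex had 0 calls with sh1319 in Capan-1. COX7B, a small subunit encoded on the X chromosome, read 11.68 and 11.60 with shCtrl, 11.17 and 11.22 with sh1209 and 11.38 and 11.53 with sh1319 in MIA PaCa-2. On the Capan-1 arrays it read 11.54 and 11.61, then 11.03 and 11.15, then 11.29 and 11.39. In each cell line the 4 knockdown arrays lay below the shCtrl arrays, and the fall was called with sh1209 (0.44, adjusted p in limma 0.018, and 0.48, adjusted p 0.013) and not with sh1319 (-0.19 and -0.23). The call in MIA PaCa-2 was lost without shCtrl replicate 1 (-0.41), sh1209 replicate 1 (-0.42) or sh1209 replicate 2 (-0.47), and under median scaling. COX6B1, a subunit at the cytochrome c side, rose by 0.38 with sh1319 in MIA PaCa-2. It also rose by 0.38 in the sh1209 pair of Capan-1, and the latter call was lost in all 12 leave-one-out fits (0.28 to 0.47), under median scaling and under median scaling over tested probes (0.21).

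The other isoform genes of complex IV showed few calls on knockdown. COX7A2L, which takes part in joining complexes III and IV into supercomplexes, rose by 0.37 with sh1319 in MIA PaCa-2. COX4I1 changed by 0.23, 0.30, 0.10 and -0.02, COX6A1 by -0.20, -0.19, 0.09 and -0.07, COX7A2 by -0.31, -0.12, 0.06 and -0.29 and COX8A by 0.04, -0.16, 0.17 and 0.10, and none of these was called. NDUFA4, named for complex I and now counted as a subunit of complex IV, fell by 0.47 with sh1209 in Capan-1, from 12.95 and 12.84 to 12.42 and 12.42, and its sh1319 arrays read 12.94 and 13.18. NDUFA4L2, its paralog, which is known as a hypoxia-responsive gene, was near background. It was detected on 2 arrays in all, both of MIA PaCa-2, 1 for each FAK hairpin, and passed the detection filter through them. Its mean level was 4.33 with shCtrl, where it was not detected, 4.56 with sh1209 and 4.84 with sh1319.

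In complex V, the ATP synthase, 0 of 32 probes were higher and 7 lower with sh1209 in Capan-1, beside 8.14% and 8.69% of all probes, with a median change of -0.21. Cyclic loess left 2 of the lower calls, median scaling over tested probes 5 and median scaling 0, and the median stayed below 0 under all 3 (-0.16, -0.29 and -0.11). In the other pairs the complex had 1 higher and 2 lower, 3 higher and 3 lower, and 2 higher and 0 lower. These counts include ATP5S and ATP5SL by name. The 2 higher with sh1319 in Capan-1 were ATP5SL and a probe of ATP5S, and 2 of the 7 lower with sh1209 there were probes of ATP5S. The c ring, through which protons pass, is made of 1 protein encoded by ATP5G1, ATP5G2 and ATP5G3 (now ATP5MC1, ATP5MC2 and ATP5MC3). ATP5G1 probe 5870446 read 10.82 and 10.70 with shCtrl, 10.53 and 10.65 with sh1209 and 10.05 and 9.99 with sh1319 in MIA PaCa-2. The sh1319 arrays lay below the other 4, a fall of 0.74 (adjusted p in limma 0.0014). Its Capan-1 changes were -0.19 and 0.06. The other ATP5G1 probe, 460040, fell by 0.73 in another pair, with sh1209 in Capan-1 (8.14 and 7.93 with shCtrl, 7.41 and 7.19 with sh1209, adjusted p in limma 0.0052), and changed by -0.09 with sh1319 in MIA PaCa-2. That call was lost without shCtrl replicate 1 (-0.63) or sh1209 replicate 2 (-0.62), and under median scaling (-0.45). The probes of ATP5G1 thus gave different pairs. ATP5G2 and ATP5G3 were not called in any pair, with changes of -0.34 to 0.34 and of -0.36 to 0.25.

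Several small membrane subunits of complex V also changed at 1 probe only. ATP5L (now ATP5MG) rose at probe 4070544 with sh1319 in MIA PaCa-2, where it read 7.53 and 7.55 with shCtrl and 8.33 and 8.42 with sh1319, by 0.83 ± 0.13 (SE, adjusted p in limma 0.00064). Its brighter probe changed by 0.17 and was not called. ATP5I (now ATP5ME) fell by 0.65 at probe 4560246 with sh1209 in Capan-1, a call lost without shCtrl replicate 1 (-0.66), shCtrl replicate 2 (-0.65) or sh1209 replicate 2 (-0.50) and under median scaling (-0.38), and its brighter probe changed by -0.23. ATP5D (now ATP5F1D), of the catalytic head, rose by 0.49 at 1 probe with sh1209 in MIA PaCa-2, was lost without shCtrl replicate 1 (0.48), shCtrl replicate 2 (0.50) or sh1209 replicate 2 (0.32), and under median scaling, and changed by 0.06 at the other. Without background correction the changes of ATP5I and ATP5D were -0.41 and 0.32.

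ATP5SL and ATP5S carry the name of the ATP synthase, but RefSeq now names them DMAC2 and DMAC2L. ATP5SL, which takes part in complex I assembly, moved in opposite directions with the hairpins in MIA PaCa-2. It read 7.51 and 7.69 with shCtrl, 7.19 and 7.10 with sh1209 and 8.24 and 8.24 with sh1319, so the groups did not overlap, with a fall of 0.45 (adjusted p in limma 0.018) and a rise of 0.64 (adjusted p 0.0016). The fall was lost without shCtrl replicate 2 (-0.36) or sh1209 replicate 2 (-0.41), and under median scaling. In Capan-1 it rose by 0.56 with sh1319 (adjusted p in limma 0.0078; lost without shCtrl replicate 1, 0.49, or sh1319 replicate 2, 0.52) and changed by 0.28 with sh1209. ATP5S fell by 0.50 at probe 6900722 with sh1319 in MIA PaCa-2, a call lost without shCtrl replicate 2 (-0.49) or sh1319 replicate 1 (-0.47), and under either median scaling (-0.30 without background correction). Another probe, 2120100, rose by 0.50 with sh1319 in Capan-1, a call that held in 4 of 12 leave-one-out fits (0.45 to 0.54). It was lost without any 1 array of Capan-1 or either shCtrl array of MIA PaCa-2, and with the replicate block (adjusted p in limma 0.060), cyclic loess, median scaling over tested probes or no filter. The probes of ATP5S disagreed in Capan-1. Over its 3 tested probes the changes with sh1319 ran from -0.50 to -0.01 in MIA PaCa-2 and from -0.25 to 0.50 in Capan-1, with 1 called in each. Probe 6900722 fell in all 4 pairs.

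**Figure D3:**
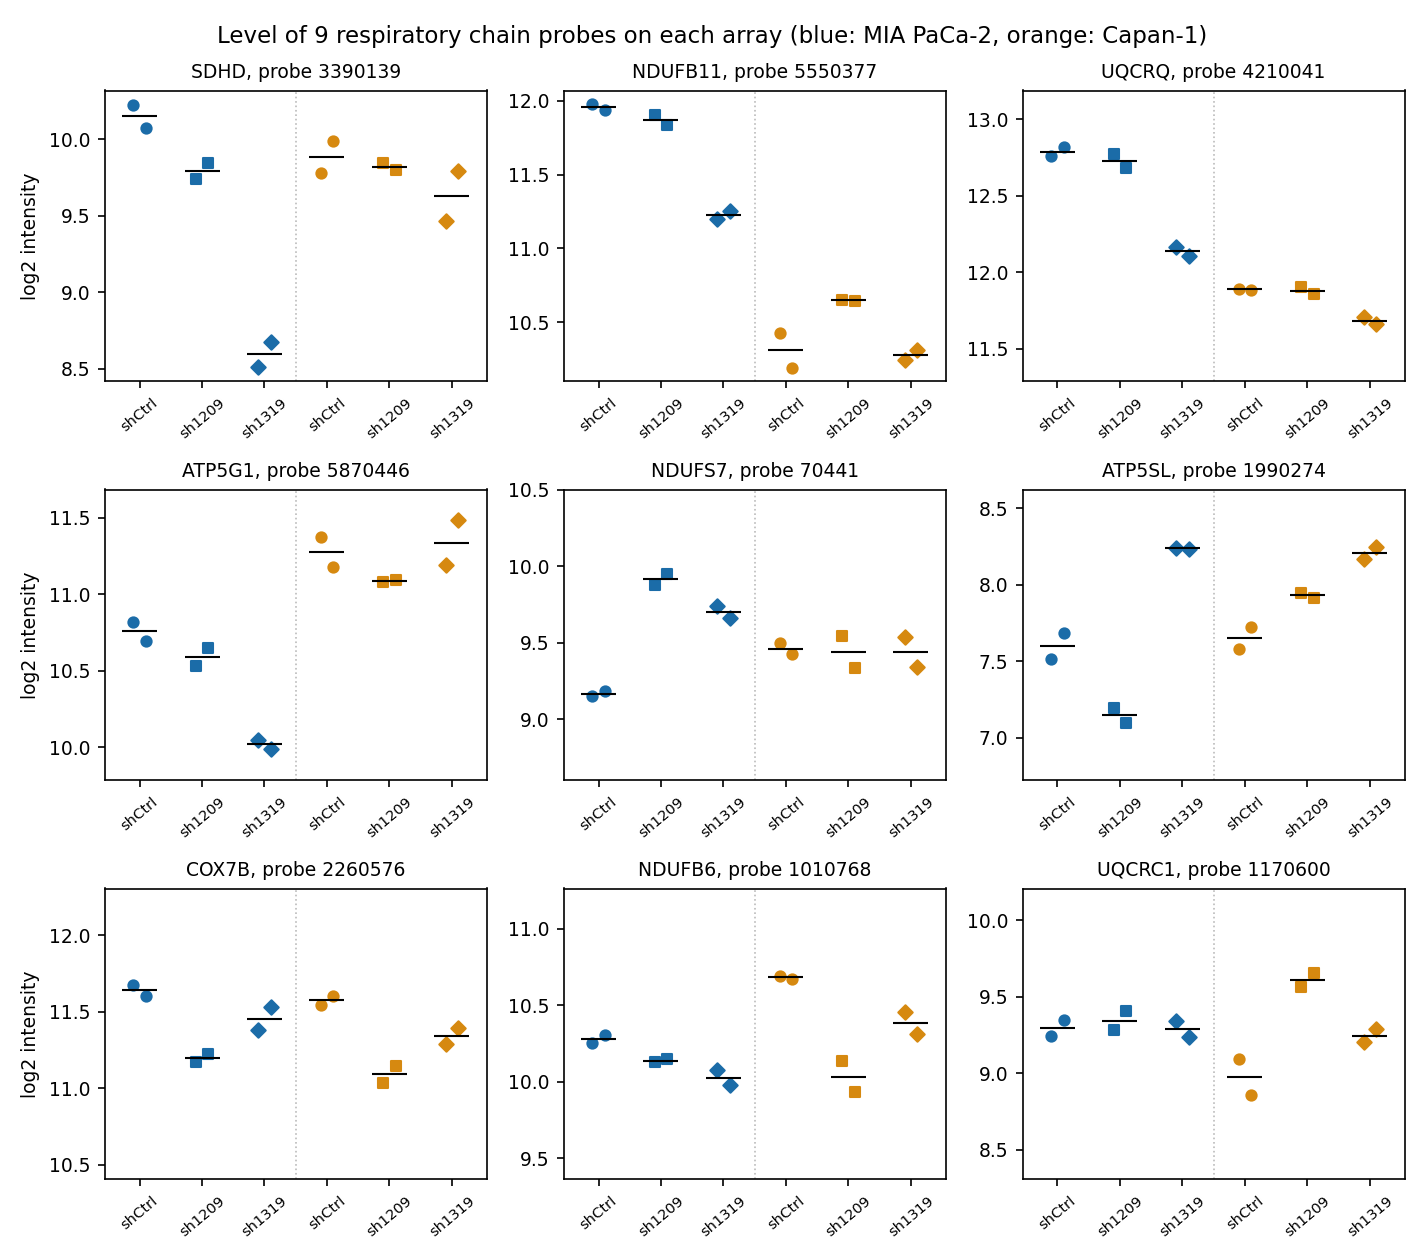
Normalized log2 intensity of 9 member probes on each of the 12 arrays, by group. Points are arrays, short lines are group means, blue is MIA PaCa-2 and orange is Capan-1. SDHD, NDUFB11, UQCRQ and ATP5G1 are lowest with sh1319 among the MIA PaCa-2 groups, NDUFS7 is lower with shCtrl than with sh1209 or sh1319 in MIA PaCa-2 alone, and ATP5SL lies on opposite sides of shCtrl with the hairpins in MIA PaCa-2.

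The combined knockdown, the mean of the 4 differences from the shCtrl of the same cell line, had 19 members called (18.6%), where 25.2% of all probes were called. Of these, 6 (5.88%) were higher and 13 (12.7%) lower, against 12.5% and 12.7% of all probes. Median scaling gave 4 higher and 1 lower, and median scaling over tested probes 2 higher and 19 lower. Among the called members with 1 sign in all 4 pairs, those named by complex were NDUFA3 (0.30), NDUFB6 (-0.34 and -0.32) and NDUFB9 (-0.24) in complex I, SDHD (-0.56, adjusted p in limma 0.00061) in complex II, UQCRFS1 (0.26), UQCR (-0.42) and UQCRQ (-0.23) in complex III, and COX6B1 (0.29) and COX7B (-0.34, adjusted p in limma 0.0041) in complex IV. Under complex V they were single probes of ATP5I (-0.36) and ATP5J2 (-0.26), with a single probe of ATP5S (-0.37) counted there by its name. The standard errors of these 13 values ranged from 0.06 to 0.10. The brighter probe of ATP5I changed by -0.01 and the other probe of ATP5J2 by -0.19, and neither was called. Over the 3 probes of ATP5S the changes ran from -0.37 to -0.002, with 1 called. UQCRFS1 is the Rieske iron-sulfur protein, and ATP5J2 (now ATP5MF) is a membrane subunit of the ATP synthase. All 10 falling probes but that of SDHD were lost under median scaling, as were the rises of UQCRFS1 and COX6B1, and NDUFA3 and UQCRFS1 were lost under median scaling over tested probes, as was COX6B1. The falls of UQCR, ATP5S, ATP5I and the second NDUFB6 probe were -0.23, -0.19, -0.22 and -0.20 under median scaling, and UQCRQ was -0.35 under median scaling over tested probes. The calls held in all 12 leave-one-out fits for SDHD, COX7B, COX6B1, ATP5S, ATP5I and the brighter NDUFB6 probe. That of UQCRFS1 held in 7 of 12, was lowest, 0.18, without Capan-1 shCtrl replicate 2, and was also lost without either MIA PaCa-2 shCtrl array, MIA PaCa-2 sh1209 replicate 2 or Capan-1 sh1319 replicate 1. The others lost their call without 1 to 3 of the shCtrl arrays, with values close to the full fit: NDUFA3 without MIA PaCa-2 shCtrl replicate 2 (0.28) or Capan-1 shCtrl replicate 2 (0.27), NDUFB6 without Capan-1 shCtrl replicate 1 (-0.29), UQCR without MIA PaCa-2 shCtrl replicate 2 (-0.35), and ATP5J2 without MIA PaCa-2 shCtrl replicate 2 (-0.25) or Capan-1 shCtrl replicate 2 (-0.24). NDUFB9 and UQCRQ lost theirs without MIA PaCa-2 shCtrl replicate 2 (-0.23 and -0.22) or either Capan-1 shCtrl array (-0.24 and -0.23).

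The response of the cell lines to knockdown was then compared directly, as the mean change in MIA PaCa-2 minus that in Capan-1. Here 5 members (4.9%) were called, where 14.4% of all probes were called, 3 (2.94%) higher and 2 (1.96%) lower, against 7.24% and 7.11%. Median scaling left 0 higher and 1 lower, SDHD. The mean change of SDHD was -0.96 in MIA PaCa-2 cells and -0.16 in Capan-1, a difference of -0.80 ± 0.17 (SE, adjusted p in limma 0.0095), and NDUFB11 by -0.41 and 0.15, a difference of -0.56 (adjusted p 0.021). NDUFS7 changed by 0.64 and -0.02, a difference of 0.66 (adjusted p in limma 0.012). NDUFA11, an accessory subunit of complex I, and ATP5C1 (now ATP5F1C), the central shaft of the ATP synthase, had differences of 0.60 and 0.59, with a mean change above 0 in MIA PaCa-2 and one below 0 in Capan-1. NDUFA11 read 11.22 and 11.10 with shCtrl and 10.65 and 10.75 with sh1209 in Capan-1, and ATP5C1 read 11.12 and 11.15 and then 10.63 and 10.70. The call of NDUFS7 was lost without Capan-1 shCtrl replicate 1 (0.63), that of SDHD without the same array (-0.69), and that of NDUFB11 without MIA PaCa-2 shCtrl replicate 1 (-0.54), MIA PaCa-2 shCtrl replicate 2 (-0.58) or Capan-1 shCtrl replicate 2 (-0.45). Those of NDUFA11 and ATP5C1 held in 6 and 3 of 12 leave-one-out fits, with values of 0.54 to 0.67 and 0.51 to 0.68. Both were lost without any 1 of the 4 shCtrl arrays or without Capan-1 sh1209 replicate 1. NDUFA11 was also lost without Capan-1 sh1319 replicate 2, and ATP5C1 without Capan-1 sh1209 replicate 2, Capan-1 sh1319 replicate 1, MIA PaCa-2 sh1209 replicate 1 or MIA PaCa-2 sh1319 replicate 2.

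**Figure D4:**
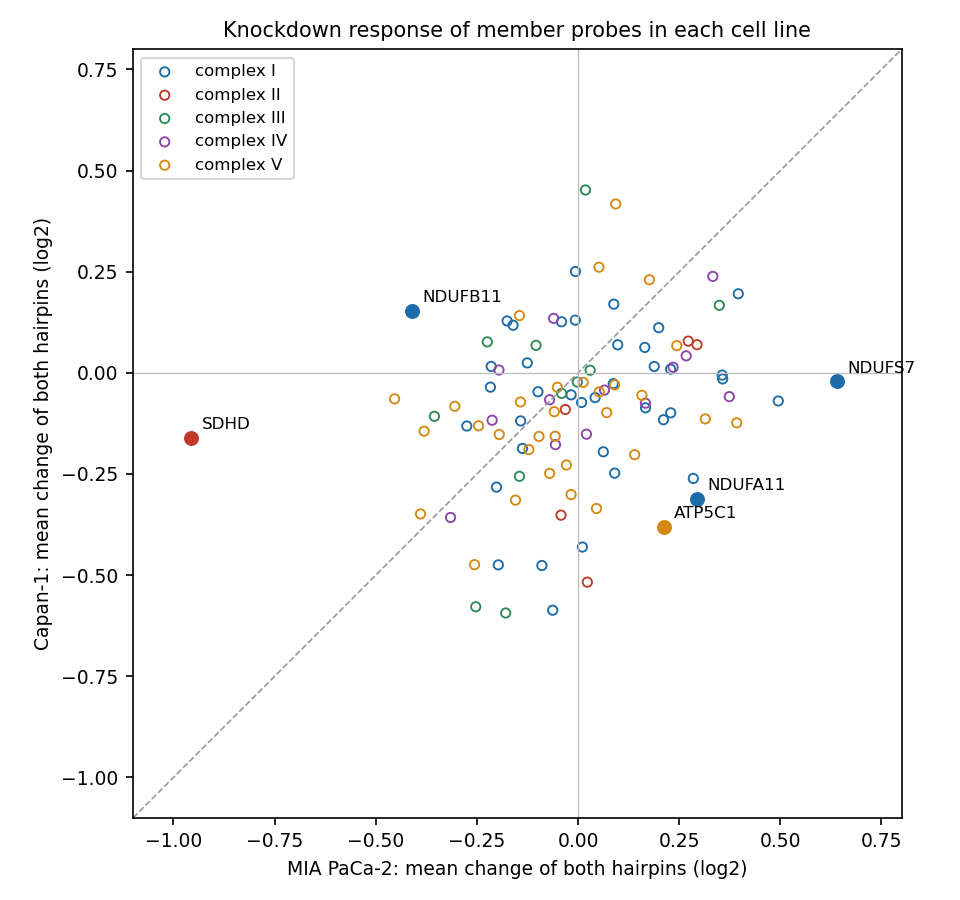
Mean log2 change on knockdown in MIA PaCa-2 (x axis) and in Capan-1 (y axis) for the 102 member probes, with the 5 probes called in the difference between the cell lines filled and labelled. The dashed line marks equal change, and SDHD and NDUFB11 lie to the left of it and NDUFS7, NDUFA11 and ATP5C1 to the right.

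The hairpins differed from each other in MIA PaCa-2. Between sh1319 and sh1209, 21 members (20.6%) were called, where 22.6% of all probes were called, 13 (12.7%) higher with sh1319 and 8 (7.84%) lower, against 11.2% and 11.5%. The split was 8 and 1 under median scaling and 15 and 3 under median scaling over tested probes. SDHD was lower with sh1319 by 1.20 (adjusted p in limma 8e-05), and NDUFB11, UQCRQ, ATP5G1 at probe 5870446 and NDUFA7 by 0.64, 0.59, 0.57 and 0.49 (log2 differences). Of these 5, SDHD alone kept its call under median scaling, and ATP5G1 and NDUFA7 also lost theirs under median scaling over tested probes. ATP5SL was higher by 1.09 (adjusted p in limma 3.7e-05), ATP5L at probe 4070544 by 1.04, UQCRB at probe 520681 by 0.97 and NDUFB3 at probe 1770102 by 0.84. The other probes of ATP5G1, ATP5L and UQCRB differed by 0.13, 0.02 and 0.21 and were not called. That of NDUFB3 differed by 0.50 and was called. NDUFC2, an accessory subunit of complex I that read 5.74 and 4.88 with sh1209 and 6.48 and 6.46 with sh1319, was higher by 1.16 ± 0.27 (SE), and by 0.73 without sh1209 replicate 2, where it was not called. Without background correction the differences of NDUFC2 and UQCRB were 0.51 and 0.36. ATP5G1 lost its call without sh1209 replicate 2 (-0.52), and NDUFA7 without any 1 of the 4 arrays (-0.53 to -0.45).

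In Capan-1, the comparison of the hairpins called 6 members (5.88%), where 11.3% of all probes were called, 4 (3.92%) higher with sh1319 and 2 (1.96%) lower, against 5.47% and 5.81%. The split was 2 and 0 under median scaling and 3 and 0 under median scaling over tested probes. ATP5G1 at probe 460040 was higher with sh1319 by 0.83 (adjusted p in limma 0.0034), NDUFA4 by 0.64 (adjusted p 0.0055) and ATP5S by 0.71 and 0.54 at a pair of its probes. NDUFB8 and NDUFA8, both accessory subunits of complex I, were lower by 0.47 each. The calls of ATP5G1 and NDUFA4 held under median scaling and the others were lost. That of ATP5G1 held in all 12 leave-one-out fits. NDUFA4 lost its call without sh1319 replicate 2 (0.53). ATP5S lost the call of probe 2120100 without any 1 of the 4 arrays (0.71 in each) and that of probe 5560053 without sh1209 replicate 1 (0.46) or sh1319 replicate 1 (0.43). NDUFB8 lost its call without sh1209 replicate 1 (-0.48), sh1209 replicate 2 (-0.47) or sh1319 replicate 1 (-0.43), and NDUFA8 without any 1 of the 4 arrays (-0.51 to -0.43).

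The largest differences among respiratory chain genes lay between the cell lines with shCtrl. There 55 members (53.9%) were called, where 42.1% of all probes were called, 26 (25.5%) higher in MIA PaCa-2 and 29 (28.4%) lower, against 22.5% and 19.6%. The split depended on the scaling, with 24 higher and 12 lower under median scaling and 42 higher and 8 lower under median scaling over tested probes. ATP5I, a membrane subunit of the ATP synthase, was higher in MIA PaCa-2 at both probes. Probe 4560246 read 10.34 and 10.27 in MIA PaCa-2 against 7.29 and 7.29 in Capan-1, a difference of 3.02 ± 0.15 (SE, adjusted p in limma 9.7e-09), and probe 1580603 read 12.22 and 12.13 against 10.90 and 10.83, a difference of 1.31. The probes of ATP5I gave the same direction and different sizes. NDUFB11 read 11.98 and 11.94 in MIA PaCa-2 against 10.43 and 10.19 in Capan-1, a difference of 1.65 (adjusted p in limma 2.7e-07), and NDUFB1 and NDUFA1, both accessory subunits of complex I, were higher by 1.05 and 1.00. NDUFB1 was detected on 1 of the 2 Capan-1 shCtrl arrays and its difference was 0.36 without background correction, while that of NDUFA1 was 1.51 under median scaling over tested probes.

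Lower in MIA PaCa-2 were NDUFB9, which read 11.08 and 11.12 against 12.45 and 12.45 (a difference of -1.35, adjusted p in limma 1.2e-06), and single probes of ATP5L (-1.56), SDHC (-1.02), UQCRB (-0.95) and ATP5D (-0.86). The second probe of ATP5L differed by -0.47 and that of ATP5D by -0.04. All 10 of these largest differences, 5 in each direction, were called in all 12 leave-one-out fits and under each scaling. For NDUFV3 and UQCRB the probes were called in opposite directions, 0.68 and -0.58 for NDUFV3 and 0.40 and -0.95 for UQCRB. Without background correction the NDUFV3 values were 0.24 and -0.19 and the larger UQCRB value -0.45, and the smaller was 0.75 under median scaling over tested probes. The NDUFV3 call of 0.68 was lost under median scaling (0.45), without MIA PaCa-2 shCtrl replicate 1 (0.59) or Capan-1 shCtrl replicate 1 (0.45), and the UQCRB call of 0.40 without MIA PaCa-2 shCtrl replicate 2 (0.35) or either Capan-1 shCtrl array (0.41 and 0.39). COX4I1 and COX8A, the widely used isoforms, differed by -0.54 and -0.49, SDHB by 0.53 and COX7A2L by 0.47. By complex, calls higher and lower were 12 and 10 in complex I, 1 and 1 in complex II, 3 and 2 in complex III, 1 and 5 in complex IV and 9 and 11 in complex V. Complex IV had 1 and 0 under median scaling, and 3 and 0 under median scaling over tested probes.

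**Figure D5:**
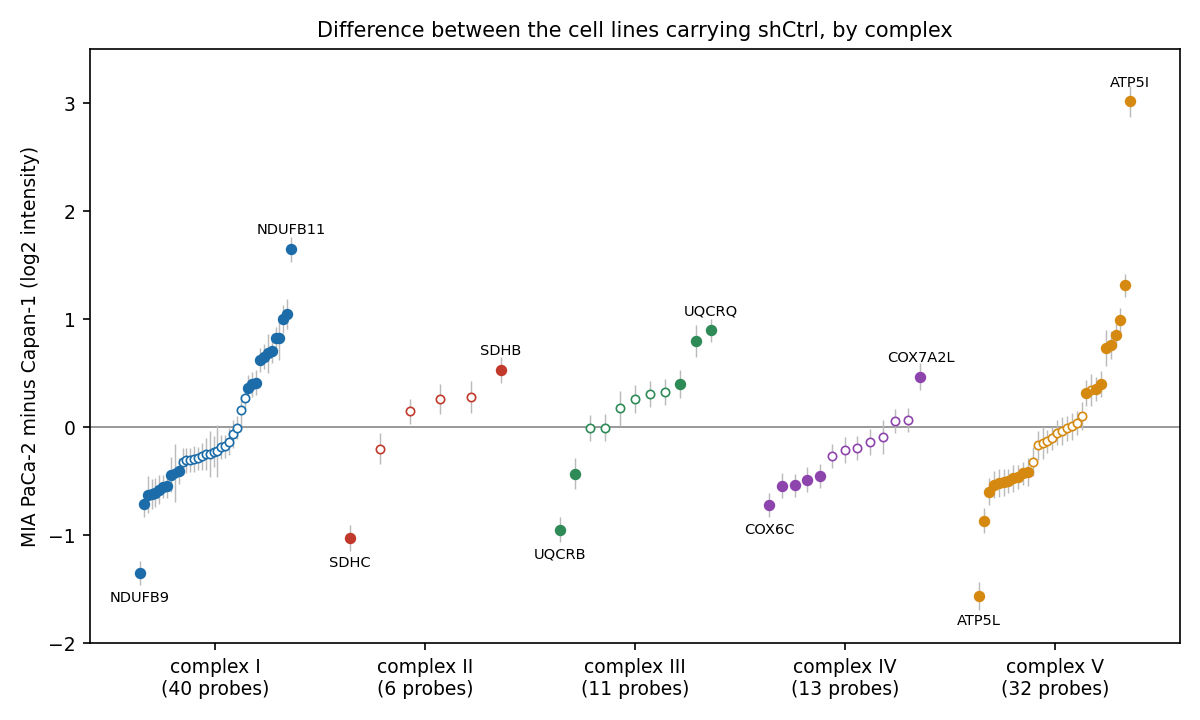
Log2 difference between MIA PaCa-2 and Capan-1 with shCtrl for the 102 member probes by complex, with standard errors as grey bars and called probes filled. ATP5I at 3.02 and NDUFB11 at 1.65 are the highest points and ATP5L at -1.56 the lowest.

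Probes of the same gene did not always move together. Of the 20 genes with more than 1 tested probe, 15, 15, 16 and 11 had probes of 1 sign in the 4 pairs, and 17 did in the combined knockdown. The spread between the probes of a gene had a median of 0.15, 0.18, 0.18 and 0.11 in the pairs. The widest were those of NDUFV3, ATP5L, ATP5G1 and ATP5S, at 0.56, 0.67, 0.54 and 0.74.

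Genes around the chain were read from lists written beside the members, with earlier results of these data known. The counts of these lists in the combined knockdown stand beside 12.5% higher and 12.7% lower over all probes. TFAM, which packages and transcribes mitochondrial DNA, fell in the combined knockdown by 1.06 ± 0.08 (SE, adjusted p in limma 2.5e-06), with changes of -1.29, -0.75, -1.28 and -0.92 in the pairs, each called. SUCLG2, a subunit of succinyl-CoA synthetase of the tricarboxylic acid cycle, fell by 0.98 (adjusted p in limma 2.1e-05), with -0.69, -0.62, -1.34 and -1.28, each called. Both calls were lost only where the replicates were averaged first, which left 0 calls on the whole array. Among 30 probes for regulators of mitochondrial gene expression, 0 were called higher and 7 lower in the combined knockdown (median -0.15), among them ESRRA (-0.57) and MTERF (-0.37), and median scaling gave 1 higher and 1 lower. ESRRA lost its call without Capan-1 shCtrl replicate 2, and MTERF without MIA PaCa-2 shCtrl replicate 1. Among 24 probes for tricarboxylic acid cycle enzymes, 1 was higher and 11 lower (median -0.22), with DLST, of the oxoglutarate dehydrogenase complex, at -0.58 and SUCLA2, of succinyl-CoA synthetase, at -0.56, and median scaling gave 1 and 4. Mitochondrial ribosomal proteins, which make the subunits encoded by mitochondrial DNA, had 3 of 110 probes higher and 35 lower (median -0.13), with MRPL45 at -0.62 and -0.59 and MRPL9 at -0.53, and median scaling gave 4 and 8.

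Of 22 probes for complex I and II assembly factors, 6 were higher and 4 lower in the combined knockdown (median -0.06), and median scaling gave 4 and 0. SDHAF1, an assembly factor of succinate dehydrogenase, rose by 0.39, and ACAD9, of complex I, by 0.38. C8ORF38, also of complex I, fell by 0.32 and lost its call without MIA PaCa-2 shCtrl replicate 2 or either Capan-1 shCtrl array. Of 25 probes for assembly factors of complexes III to V, 3 were higher and 4 lower, and 4 and 0 under median scaling, with UQCC rising by 0.36, lost without MIA PaCa-2 or Capan-1 shCtrl replicate 1, and LRPPRC, which stabilizes mitochondrial mRNA, falling by 0.53. FASTKD2 fell by 0.33 and lost its call in 11 of 23 alternatives. Of 19 probes for cytochrome c, carriers and pores, 1 was higher and 3 lower. ATPIF1, the inhibitor of the ATP synthase, fell by 0.30. The calls of C8ORF38, LRPPRC and ATPIF1 were lost under median scaling.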

How the data were processed

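The 12 arrays form 6 groups of 2 by the sample labels (cell line and hairpin), with shFAK1319 read as sh1319. The authors deposited a linear intensity and a detection p-value for each probe, without normalization (GenomeStudio 2011.1, per the submitters' processing notes). Of 47320 rows, 92 control probes were dropped, and 28 empty columns were not read. Dates stand in place of gene names in 54 rows. Depth does not apply to arrays, and the number of arrays limits the precision.

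Background was corrected with limma's nec function (normexp from the detection p-values, offset 16, which understates changes of dim probes), and log2 intensities were quantile-normalized. Probes detected at 0.05 on 2 or more arrays were tested, 24207 of 47228. Means of the 6 groups were fitted with limma 3.58.1 (R 4.3.3, 6 residual degrees of freedom) for 9 comparisons. All adjusted p-values are from limma, with Benjamini-Hochberg adjustment over all tested probes within a comparison.

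Members and gene lists were chosen with earlier results of these data known. Named members were PTK2, up to 3 called rises and falls for each complex in the combined knockdown among those with 1 sign in all 4 pairs, the 5 largest called rises and falls in each pair, the 5 largest called differences each way in the other comparisons, the subunits of complex II, CYC1, the isoform genes, genes with probes called in opposite directions, and up to 3 probes for each list. A gene with several probes was to be described by all of them, but for some comparisons only the called probes are given. Of the 88 symbols, 87 matched a current RefSeq symbol (66 unchanged, 21 renamed).

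On simulated data with 200 of 24207 probes changed, changes of 1 were recovered in 76% of cases for sh1209 in MIA PaCa-2 (5.59% false calls) and in 97% for the combined knockdown (8.49%), and changes of 0.5 in 0% and 58.5%. In the data 18% and 25.2% of all probes were called in these comparisons, far more than were changed in the simulation. The adjustment depends on that share, so these rates do not measure recovery in the data. The alternatives were no background correction, an offset of 50, median scaling, cyclic loess, no filter, detection on all 12 arrays, the replicate number as a block, array weights, the brightest probe for each gene, each array left out, the methods' t-test and averaged replicates. Median scaling over tested probes was added after the data were examined.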

Additional observations from a re-analysis of the deposited data

Results flagged for a closer look

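The knockdown response differed between the cell lines for 5 members (4.9%, where 14.4% of all probes were called), by limma's test of the difference itself (mean change in MIA PaCa-2 minus that in Capan-1, 8 knockdown and 4 shCtrl arrays). SDHD alone kept its call under median scaling, and each of the 5 lost its call without 1 or more single arrays, as given above. The mean change of SDHD was -0.956 in the former and -0.160 in the latter, a difference of -0.7958 (adjusted p in limma 0.0095). NDUFB11 changed by -0.412 and 0.153, a difference of -0.565 (adjusted p 0.021). NDUFS7 changed by 0.641 and -0.020, a difference of 0.6614 (adjusted p in limma 0.012). NDUFA11 changed by 0.293 and -0.311, a difference of 0.6043 (adjusted p 0.025), and ATP5C1 by 0.211 and -0.380, a difference of 0.5919 (adjusted p 0.036).

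The MIA PaCa-2 mean for SDHD joins a change of -1.56 with sh1319 and of -0.36 with sh1209, and that for NDUFB11 joins -0.73 and -0.09. The brighter PTK2 probe changed by -0.61 with sh1209 in Capan-1 and by -2.24, -2.48 and -1.78 in the other pairs, and its part in these differences was not tested.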

How the results depend on the processing

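The direction of every named member result was kept under every alternative, and 0 reversed. The count of members called moved with the settings. For the alternatives, the share of all probes called is given only for detection on all 12 arrays and for averaged replicates. The other counts therefore do not show whether the members moved more than the array as a whole. The main counts were 11, 20, 19 and 7 in the pairs (sh1209 and sh1319 in MIA PaCa-2, then in Capan-1), 19 combined, 5 for the cell line difference, 21 and 6 between hairpins in MIA PaCa-2 and Capan-1, and 55 between cell lines with shCtrl. Without background correction, 27, 34, 40, 17, 41, 21 and 28 were called in all but the MIA PaCa-2 hairpin and shCtrl comparisons. Median scaling left 3, 11, 1, 2, 5, 1, 9, 2 and 36 in the order above. Median scaling over tested probes left 13 with sh1319 in MIA PaCa-2, 3 with sh1319 in Capan-1 and 3 between hairpins in Capan-1, and cyclic loess 11 and 4 with sh1209 and sh1319 in Capan-1. An offset of 50 gave 25, 34 and 13 (sh1209 in MIA PaCa-2, sh1209 and sh1319 in Capan-1), 33 combined, 17 for the cell line difference and 22 between hairpins in Capan-1. Detection on all 12 arrays gave 19, 12, 31, 10 and 16 for sh1209 in MIA PaCa-2, sh1319 in Capan-1, combined, the cell line difference and the Capan-1 hairpins, of 95 members, where 35.3%, 29.2%, 45.2%, 26% and 25.5% of all probes were called. The brightest probe for each gene gave 6 with sh1209 in MIA PaCa-2 and 4 with sh1319 in Capan-1. The methods' t-test, without adjustment, called 24, 14 and 20 (sh1209 in MIA PaCa-2, sh1319 in Capan-1, hairpins in Capan-1). After Benjamini-Hochberg adjustment it called 0 in each pair and between hairpins, and 23 between cell lines, and PTK2 (-2.24, -2.48, -0.61 and -1.78) was no longer called. Averaging replicates first left 0 members and 0 of all probes in the combined knockdown, with 2 members (1.96%) at an unadjusted p under 0.05, beside 7.49% of all probes. PTK2 with sh1209 in Capan-1 was -0.42 and not called under median scaling.

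Leaving out each array gave 4 to 9, 7 to 20, 5 to 17, 0 to 7, 10 to 19, 1 to 7, 10 to 21, 2 to 6 and 44 to 54 members called, where the lone array of a group is assumed to vary like the other groups. The lowest counts came without sh1209 replicate 2 (4) and sh1319 replicate 1 (7) in MIA PaCa-2, Capan-1 shCtrl replicate 1 (5 and 0), and MIA PaCa-2 shCtrl replicate 2 (10 combined). PTK2 ranged from -2.31 to -2.18, -2.53 to -2.43, -0.70 to -0.52 and -1.87 to -1.69. Of 82 named member results, median scaling lost 45, median scaling over tested probes 18 and cyclic loess 3. Median scaling over all probes moved the median of all probes by 0.11 for sh1319 in Capan-1, and over tested probes by -0.11 and -0.10 for sh1319 and sh1209 in Capan-1 and 0.20 between cell lines. The cause of these differences was not tested.

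Across groups, the deviations of arrays of the same replicate number were weakly correlated at most (15 correlations, -0.06 to 0.16). Each group gave a single deviation between its arrays, so these correlations cannot decide whether the numbers pair the samples. With the replicate block the counts were 9, 19, 16, 5, 19, 5, 22, 6 and 56, and 3 named results were lost (NDUFB9 with sh1209 in MIA PaCa-2, and ATP5S probe 2120100 and SDHC probe 1090301 with sh1319 in Capan-1).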

Other observations

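Hypoxia-responsive genes, a list read because oxygen is the chain's electron acceptor, had 20 tested probes for 14 genes. This list too was chosen with earlier results of these data known. In MIA PaCa-2 with sh1209, 3 were called higher and 8 lower, beside 9.05% and 8.99% of all probes, and with sh1319 there 8 and 2, beside 12.2% and 12.1%. With sh1209 in Capan-1 the counts were 11 and 0, beside 8.14% and 8.69%, and with sh1319 they were 6 and 1, beside 6.95% and 6.77%. The difference between these counts was not tested. ADM, which encodes adrenomedullin, rose by 1.67 in the combined knockdown (adjusted p in limma 5.6e-08). EGLN3, detected on all Capan-1 arrays and no MIA PaCa-2 array, changed by -0.25 and lost its call in 20 of 22 alternatives.

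Among the cell type marker lists, KRT19, a ductal keratin, was called lower in both MIA PaCa-2 pairs (-1.44 and -1.47, detected on 1 of 2 arrays with each FAK hairpin) and in neither Capan-1 pair (-0.07 and -0.28). The MUC1 probe detected in all groups rose by 0.37 in the combined knockdown and lost its call in 4 of 23 alternatives, and another MUC1 probe, detected on 1 MIA PaCa-2 array, changed by 0.41 and lost it in 15 of 21. Of the 13 tested probes for ductal markers, these were the only 2 called higher there, and 2 were called lower, beside 12.5% and 12.7% of all probes. MUC1 has 3 probes, and its remaining probe was not among the higher calls. Of the markers of other cell types, 4 of 11 tested probes were called higher and 0 lower in the combined knockdown, beside 12.5% and 12.7% of all probes. On the MIA PaCa-2 arrays, ACTA2 and COL3A1 were detected on both arrays of each FAK hairpin and on neither shCtrl array. ACTA2 was also called higher in both Capan-1 pairs (0.44 and 0.55), where COL3A1 was not detected. VWF was detected on 2 arrays, both of Capan-1 with sh1209. COL3A1 and VWF thus passed the detection filter only through arrays with a FAK hairpin, and their higher calls are not taken as a result. The part of these genes in the changes of the respiratory chain genes was not tested.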
